A study of Talpa occidentalis with 2 samples.

Results

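In the deposited gene annotation of the Iberian mole, Talpa occidentalis, 213 of 23336 gene models (0.913%) were named by a gene symbol, had 40 or more coding exons and spanned less than 300 kb of genome. They carry 212 different symbols, because the DNA repair kinase PRKDC is split over 3 models, 2 of which are included. The collagen genes (20 models) and the MYH myosin heavy chain genes (3 models) were set aside, 23 models in all. Another 27 symbol-named models with 40 or more exons were left out because their span was 300 kb or more, and 1 further model of that exon number had no symbol. The genes were selected on exon number and span, so both are given below as a description only.

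The annotation accompanies a study of the contacts of the FGF9 promoter by 4C-seq, a method in which the fragments ligated to a chosen viewpoint are amplified and sequenced. The study has 1 wild-type forebrain library and 1 wild-type hindlimb library, both from embryonic day 15, with the FGF9 transcription start as viewpoint and NlaIII and DpnII as the enzymes. Neither library has a column in the annotation, and contact values were not analysed here. What follows describes 1 genome, build talOcc3, with no replicates and no test, because exons of 1 gene and genes of 1 family share their origin.

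A coding exon is a stretch of a gene that is kept in the messenger RNA and translated, and introns are the stretches removed between exons. An intron lies in phase 0 when it falls between codons, in phase 1 after the first base of a codon and in phase 2 after the second. An internal exon is symmetric when the introns on both sides have the same phase: its length is then a multiple of 3 bases, and it can be skipped, inserted or duplicated without shifting the reading frame. Proteins built from tandem copies of 1 domain are the textbook case of long rows of symmetric exons, and extracellular domains such as the EGF-like domain are typically bounded by phase 1 introns.

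The models are predictions with 1 transcript per gene and no untranslated regions. EVM, which merges gene predictions with alignments, made 212 of the 213, and exonerate, an aligner, made ROS1, a receptor tyrosine kinase gene whose exons carry no deposited phase. Phase values therefore cover 212 models, and in all 212 the deposited phases followed from the exon lengths. The coding length was not a multiple of 3 in 9 models, among them TTN, MACF1 and USP34. Each name rests on a match to a transcript of another annotation, and the match covered 90% or more of the coding length in 183 models and less than 80% in 18. For EFCAB3 it covered 11.5% and for MUC16 19.8%, so these symbols name only a small stretch of their models.

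The compact many-exon genes had a median of 48 coding exons, a median span of 104 kb and a median coding length of 7233 bases. Together they held 11675 coding exons, 6.47% of all exons in the annotation, and 5.50% of all coding bases. In 115 models the exon number lay from 40 to 49, in 70 from 50 to 69, in 22 from 70 to 99, and in 6 it was 100 or more. Coding sequence made up a median of 7.59% of the span, with a range from 2.08% in FOCAD, a focadhesin gene, to 41.6% in MUC16, a large mucin. At the exon limit, 20 models had exactly 40 exons, such as the DNA methyltransferase DNMT1 and the chromatin remodeller CHD3, and 24 had 39, such as the kinesin CENPE and the receptor IGF2R. At the span limit lay DNAH11 with 297 kb on the inside and DNAH9 with 308 kb on the outside, both axonemal dynein heavy chains.

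**Figure D1:**
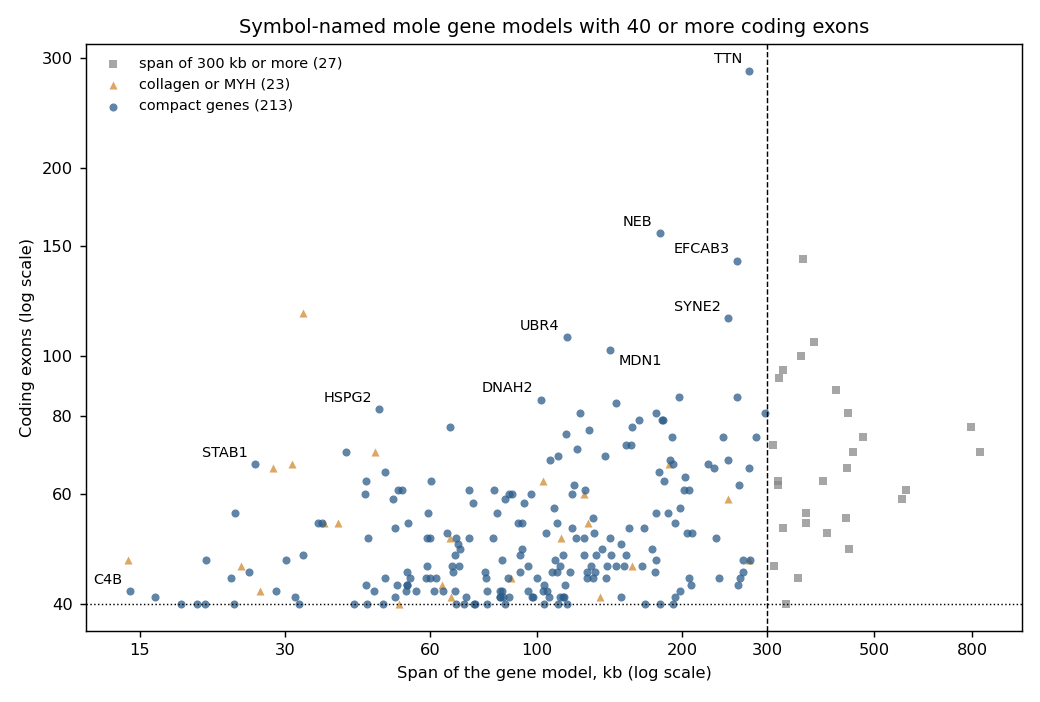
Coding exons against span (both log scales) for every symbol-named model with 40 or more exons; the dashed line marks 300 kb and the dotted line 40 exons. Blue points are the 213 compact genes, grey squares the 27 longer genes and orange triangles the 23 collagen and MYH genes. TTN (286 exons), NEB (157) and EFCAB3 (142) lie highest among the blue points, and C4B (14.3 kb) is the shortest of them.

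TTN encodes titin, the protein spring of the sarcomere, and had 286 coding exons and 97403 coding bases. On scaffold 1 it occupied bases 52715338 to 52990534, read from the minus strand, between CCDC141 and PLEKHA3. NEB, which encodes the thin-filament protein nebulin, had 157 exons and 22011 coding bases on the same scaffold, from 31291299 to 31470972. EFCAB3, named for a calcium-binding EF-hand protein, had 142 exons and 13386 coding bases on scaffold 28, from 12683785 to 12943507. These were followed by SYNE2 (nesprin, a linker of the nucleus to the cytoskeleton) with 115 exons, by the ubiquitin ligase UBR4 with 107 and by the ribosome assembly ATPase MDN1 (midasin) with 102. The ciliary gene HYDIN and the ubiquitin ligase MYCBP2 had 86 exons each, DNAH2 had 85 and the lipid transfer gene VPS13C had 84.

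The shortest coding lengths were 3519 bases in KTN1 (kinectin), 3870 in ANAPC4 (a subunit of the anaphase-promoting complex, matched over 59.3%), 3993 in SYCP2 (a synaptonemal complex protein), 4050 in VPS8 (an endosomal tethering protein) and 4341 in FANCD2 (a DNA crosslink repair protein). All 5 of these genes had between 40 and 45 exons. At the upper end, MUC16 reached 23319 coding bases with 42 exons, SYNE2 20748 and MDN1 16836. Coding length exceeded 10 kb in 46 of the 213.

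Exons were short and similar in size across the genes. The median exon of a gene had a median of 133.5 bases, with quartiles of 116 and 147.5, where the 1669 symbol-named models of 20 to 39 exons had 123 and the 27 longer genes 143. Exons of 91 to 120 bases and those up to 30 bases longer each made up 21.7% of the 11675. The shortest median exons were those of PLB1 (a phospholipase) at 70.5 bases, VPS8 at 83, and ANAPC4 and NLRC5 at 84 each, then KTN1 at 85.5. The longest were those of TTN at 279, DNHD1 (a dynein-like protein) at 200.5, PKD1L2 at 177, TRRAP at 175.5 and DNAH5 at 173. Exons of 30 bases or fewer made up 0.822%.

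Very long exons occurred in a minority: 33 of 213 genes had an exon of 1000 bases or more. TTN exon 246 had 17106 bases, 17.6% of its coding length. MUC16 exon 3 had 13905 bases, 59.6% of the coding length. ANK3, the ankyrin of the axon initial segment, had an exon of 7818 bases, number 37 of 43, that made up 59.98% of its coding length. MACF1, a crosslinker of actin and microtubules, had an exon of 5427 bases, and the hearing myosin MYO15A one of 3588. NLRC5, a regulator of MHC class I genes, had an exon 3 of 1672 bases, 32.8% of its coding length.

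Introns varied more between genes than exons did. The median intron of a gene had a median of 1108 bases, with quartiles of 745 and 1628, against 1253.5 in models of 20 to 39 exons and 2551 in the 27 longer genes, a value that the span limit bounds. The shortest median introns were 137 bases in C4B (complement component C4), 149 in PRPF8 (a core protein of the spliceosome), 153 in DYNC1H1_copy2, 163 in TLN1 (talin, which ties integrins to actin) and 165.5 in STAB1 (a scavenger receptor). The longest were 4022 bases in PATJ (a cell polarity scaffold), 3465 in PREX2 (a Rac exchange factor), 3194 in VPS8, 3141 in FOCAD and 2906.5 in MYO9A. Introns below 100 bases made up 5.03% of all, and TTN held 63 of them, STAB1 20 and HSPG2 16.

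The longest intron of a gene had a median of 10.9 kb and took a median of 10.8% of the span. CACNA1D, a neuronal and cardiac calcium channel gene, had the longest at 124 kb, followed by MACF1 with a first intron of 119.7 kb and SVEP1 with 100.8 kb. In NEB the longest intron, 7.28 kb, took 4.05% of the span, the lowest share among the 213 genes. The first intron was the longest in 31 genes (14.6%), where the share was 13.2% in models of 20 to 39 exons and 27.1% in models of 3 to 19. These classes had medians of 48, 25 and 7 exons. With fewer introns, any given intron is more often the longest, so the shares are not directly comparable. The first intron was longer than the gene's own median intron in 147 compact genes (69%).

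C4B was the most tightly packed of the genes, with 42 exons in 14.3 kb, or 29.4 exons per 10 kb. It lay on scaffold 59, from 203887 to 218160, with STK19 0.571 kb before its 5′ end and CYP21A2 3.82 kb beyond its 3′ end. STAB1 followed with 25.8 exons per 10 kb, the model named VARS2 with 25.4 and TLN1 with 23.7. The symbol VARS2, a mitochondrial valyl-tRNA synthetase, matched only 65.5% of that model, and EML3, at 18.3 kb another of the 5 shortest spans, matched 41.6%. The remaining short spans were those of DYNC1H1_copy2 at 19.7 kb and CHD3 at 20.4 kb.

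Across the 11209 internal exons with phases, 45.1% were symmetric (95% Wilson interval 44.2 to 46.0, which covers the counting of exons only). The share was 43.6% in the 27 longer genes, 40.4% in models of 20 to 39 exons, 38.9% in models of 3 to 19 exons and 82.7% in the collagen and MYH genes pooled. Within that last class, MYH7B, MYH9 and MYH10 had 35%, 47.4% and 51.3%. In the compact genes, exons bounded by phase 0 on both sides made up 27.7%, those bounded by phase 1 13.1% and those bounded by phase 2 4.27%. Of the 11421 introns, 49.9% lay in phase 0, 29.8% in phase 1 and 20.2% in phase 2, and models of 20 to 39 exons had 47.9%, 29.4% and 22.7%. Phase 0 was the most frequent in 176 of 212 genes, phase 1 in 31 and phase 2 in NLRC5 and ANAPC4, with ties in 3.

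A group of 10 genes held 830 of the 5055 symmetric internal exons. These were NEB, EFCAB3, TTN, FBN1, FBN2, FBN3, NLRC5, NRAP, ANK1 and ANK3, chosen because each has 10 or more exons of 1 identical length. In them 88.8% of 935 internal exons were symmetric, and in the other compact genes 41.1% of 10274, close to the 40.4% of models of 20 to 39 exons. As exons of 1 length repeat a multiple of 3 in all 10, the choice bears on their symmetric share, and the value is a description. Exons bounded by phase 1 on both sides fell from 13.1% to 9.07% without the 10 genes, and those bounded by phase 0 stood at 27.8%. The same property was held by 9 of 1669 models of 20 to 39 exons, by 0 of the 27 longer genes and by 12 of the 23 collagen and MYH genes.

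**Figure D2:**
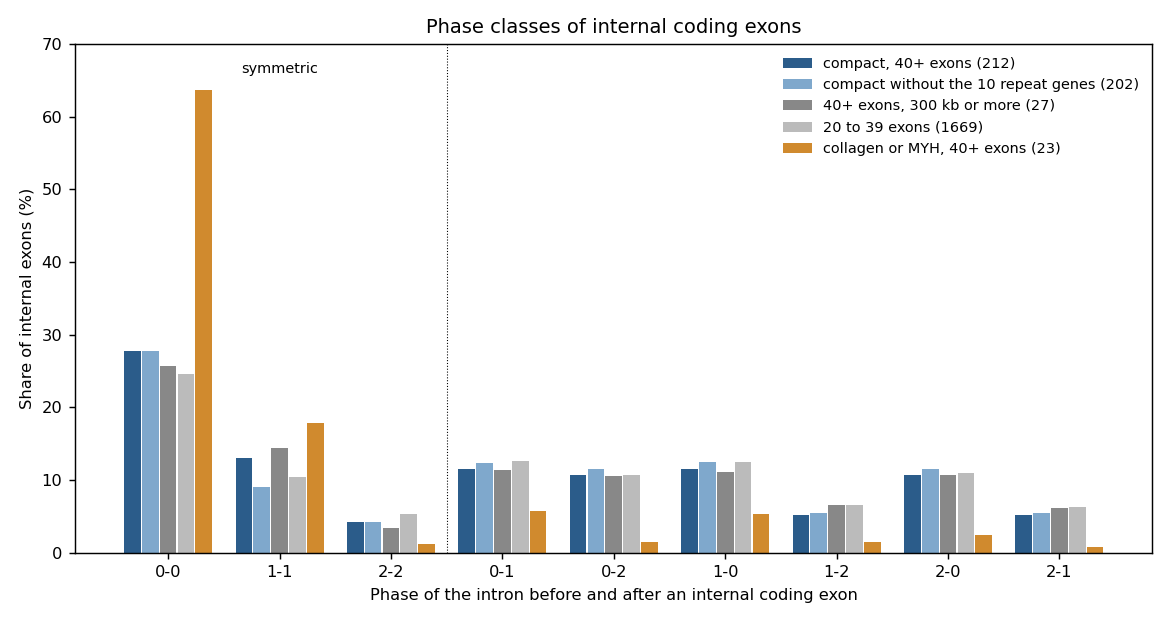
Share of internal coding exons (%) in each of the 9 combinations of the phase of the intron before and after the exon, with the number of gene models of each class in brackets; the 3 symmetric classes are left of the dotted line. The 1-1 class of the compact genes is 13.1% with the 10 repeat genes and 9.07% without them, and the collagen and MYH genes stand at 63.7% in the 0-0 class.

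NEB had the longest row of introns in 1 phase: introns 1 to 152 of 156 all lay in phase 0, and 98.7% of its internal exons were symmetric. Its exons came in few lengths, 57 of 105 bases, 31 of 108 and 17 of 312. Exon length recurred at a distance of 4 exons in 54.2% of positions, against 22.4% between neighbouring exons. NRAP, a nebulin-related actin-anchoring protein of striated muscle, had 39 successive introns in phase 0 and 18 exons of 105 bases. In NRAP equal lengths recurred most at a distance of 11 exons, in 54.8% of positions.

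EFCAB3 had 131 successive introns in phase 1, numbers 3 to 133 of 141. Its exons alternated between 105 bases (48 exons) and 54 bases (44 exons): an exon of 105 was followed by one of 54 in 38 places, and the reverse also occurred in 38. Length recurred at a distance of 2 exons in 59.3% of positions and between neighbours in 5.67%. As the named match covers 11.5% of the coding length, most of this alternating row lies outside the stretch that gave the gene its name.

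TTN was less uniform, with 82.4% symmetric internal exons and 85.3% of introns in phase 1. Its most frequent lengths were 279 bases (31 exons), 288 (21) and 303 (17), and its longest row in 1 phase was 68 introns, numbers 212 to 279. The fibrillins are extracellular microfibril proteins made largely of EGF-like domains. FBN1 and FBN2 each had 61 successive introns in phase 1, with 18 and 21 exons of 126 bases. FBN3 had a row of 28 and, over the whole gene, 15 exons of that length. Symmetric exons made up 95.3% in FBN1, 90.9% in FBN2 and 85.2% in FBN3.

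NLRC5 had the longest row in phase 2, introns 3 to 42 of 42, and the next was 6 introns in UNC80, a sodium leak channel subunit. In NLRC5 19 of 43 exons had 84 bases, and 97.6% of internal exons were symmetric. The gene ends in a row of leucine-rich repeats, by general description, and its named match covered 70.8%. ANK1 and ANK3, ankyrins that hold membrane proteins to the spectrin skeleton, each had 21 successive introns in phase 0 near their 5′ ends and 15 and 14 exons of 99 bases. Their rows took 47.7% and 50% of the introns of the gene. Outside these 10 genes, the longest rows were 16 introns in SYNE2, 15 in FRAS1 and 13 in both ADAMTS20 and SORL1, and the median over 212 genes was 6.

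**Figure D3:**
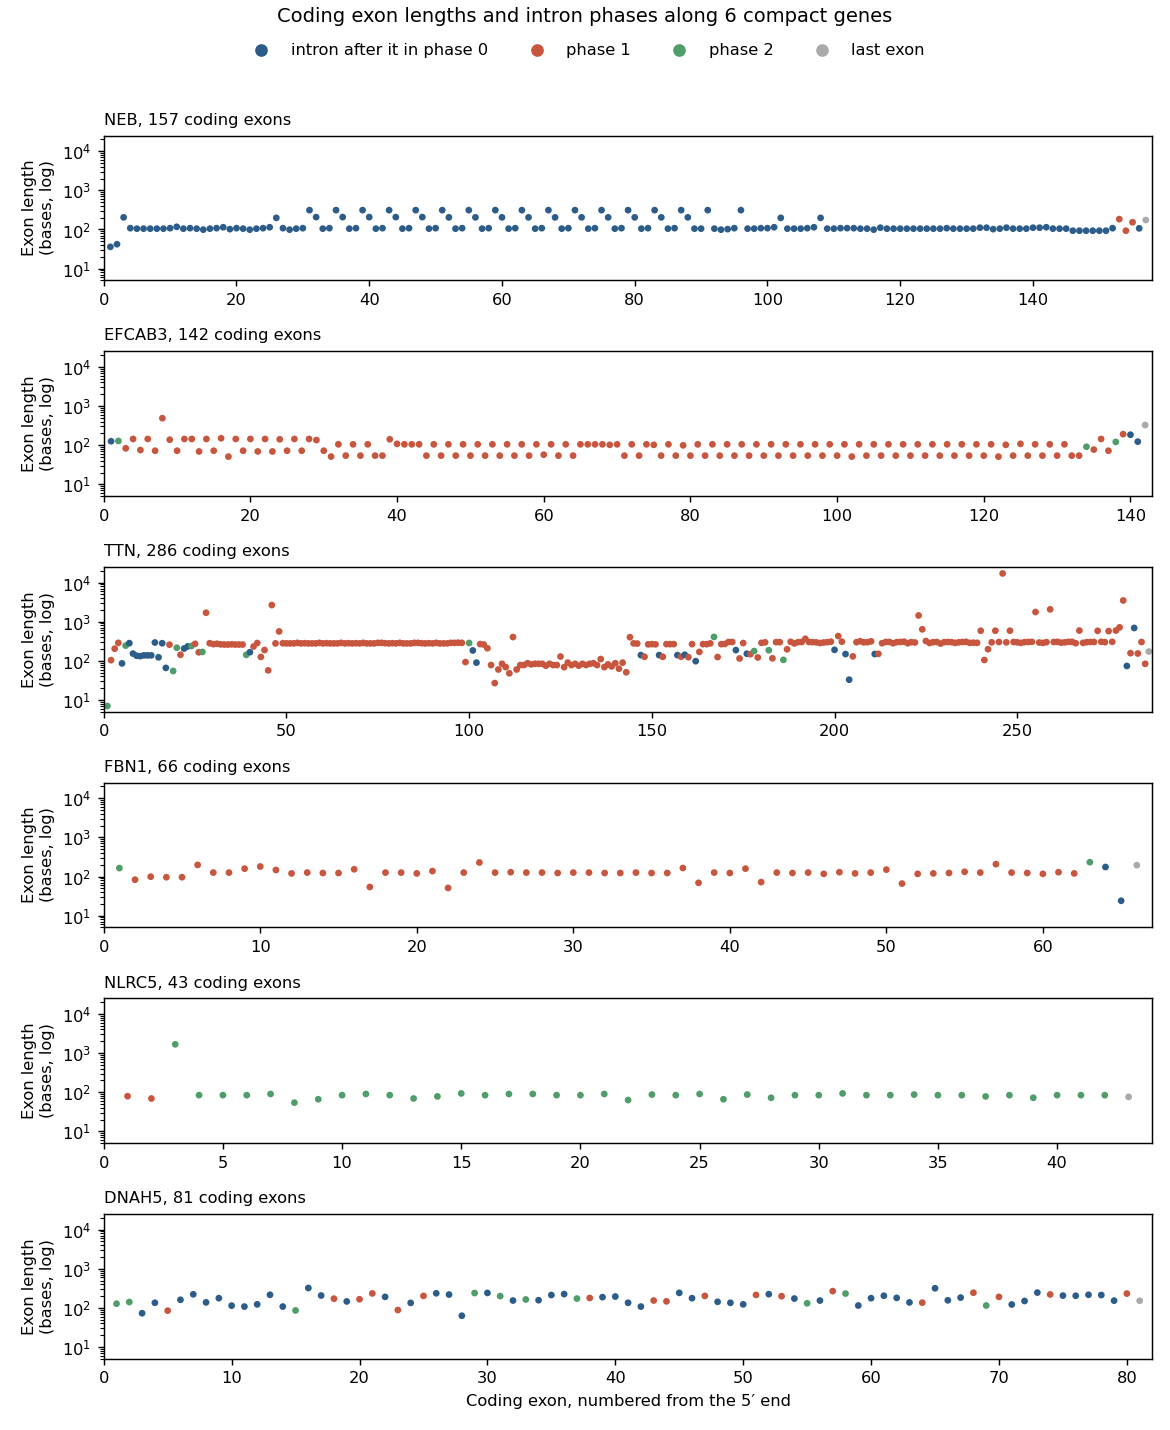
Length of each coding exon (bases, log scale) by its place from the 5′ end in 6 compact genes, coloured by the phase of the intron that follows. NEB is phase 0 throughout introns 1 to 152, EFCAB3 alternates between 2 lengths in phase 1, FBN1 is in phase 1 and NLRC5 in phase 2 over nearly the whole gene, and DNAH5 mixes all 3 phases and has no length in more than 3 exons.

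At the other end stood ARFGEF2, a guanine nucleotide exchange factor of the Golgi, where 12.8% of internal exons were symmetric. DNMT1 and SYCP2 followed with 18.4% each, ZAN (the sperm protein zonadhesin) with 20.7% and DEPDC5 (a subunit of an mTORC1 inhibitor) with 22.5%. ZAN nevertheless repeated lengths: 8 exons had 142 bases and 5 had 212, neither a multiple of 3. In HSPG2, the basement membrane proteoglycan perlecan, 8 exons had 152 bases and 6 had 136. In all, 28 of 212 genes had under 30% symmetric internal exons and 16 had 60% or more.

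By function, 124 of the 213 models fell in at least 1 of 24 gene lists, and 89 in none. The lists held 327 symbols, of which 319 had a model, where the annotation has 16075 symbols. In 23 lists there was at least 1 compact many-exon gene. The lists were chosen with earlier results of these data known, so these counts are a description only. Of the plexins, receptors for semaphorins, 8 symbols had a model, some of them several for 15 models in all, and none reached 40 exons. In the annotation as a whole 1.13% of models had 40 or more exons.

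Dynein heavy chains are the motor subunits that bend cilia or carry cargo along microtubules. Of 15 listed dynein heavy chains 12 were compact many-exon genes, with a median of 70.5 exons and 12489 coding bases and 63.1% of introns in phase 0. Their spans ran from 19.7 kb in DYNC1H1_copy2, a piece of the cytoplasmic dynein gene, to 297 kb in DNAH11. Their symmetric shares ran from 23.7% in that piece to 59.5% in DNAH11. A further 7 genes came from the list of cilium and centrosome proteins, including CEP290 (a protein of the ciliary transition zone, 50 exons), IFT172 (intraflagellar transport, 48) and C5orf42 (54), now called CPLANE1. Of 24 unconventional myosins, which carry cargo along actin, 7 were included: MYO5A, MYO5C, MYO9A, MYO10, MYO15A, MYO18A and MYO18B.

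Cytoskeletal linkers added 11 of 22 listed genes, among them SPTAN1 and SPTBN5 (spectrins), TLN1 and TLN2 (talins), FLNC (a filamin), ANK1 and ANK3, MACF1 and SYNE2. Phase 0 held 66.3% of their introns, but 60.9% of the introns of FLNC lay in phase 1. Of the 13 listed sarcomere proteins, TTN, NEB and SPEG (a muscle kinase) passed. SPEG differed from the other two in having 45% symmetric internal exons.

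In the list of fibrillins and other EGF or fibronectin repeat proteins 10 of 29 genes passed, and 63.7% of their introns lay in phase 1, with 66.7% in the extracellular matrix protein HMCN2 and 86.7% in fibronectin, FN1. The scavenger receptors STAB1 and STAB2 of the same list had 24.2% and 23.5% there and 65.2% and 69.1% in phase 0. In CUBN, the intestinal receptor for vitamin B12 bound to intrinsic factor, 54.5% of introns lay in phase 1 but only 24.6% of internal exons were symmetric. The LDL receptor family gave LRP1, LRP2 and SORL1, endocytic receptors with 59.3% of introns in phase 1. VWF (von Willebrand factor, of blood clotting), OTOG (otogelin, of the inner ear) and ZAN had 48.4%, and the basement membrane genes LAMA1, LAMA3 and HSPG2 had 33.0% there and 47.4% in phase 0.

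The PIKK kinases are very large serine/threonine kinases or kinase-like proteins. All 6 PIKK kinases passed, as 7 models: ATM and ATR (DNA damage signalling), PRKDC, MTOR (growth control), SMG1 (RNA surveillance) and TRRAP (a chromatin cofactor). The 7 models, which include 2 pieces of PRKDC, had between 40 and 61 exons and spans from 72.0 to 110.4 kb. Of 14 giant ubiquitin ligases 12 passed, with a median of 65.5 exons and 11038.5 coding bases, among them HUWE1 (81 exons), HERC1 (77) and HECTD4 (76). Their introns were 45.2% phase 0 and 31.2% phase 1, and their symmetric share of 35.9% ran from 27% in HECTD4 to 47.6% in MYCBP2.

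Channels and membrane proteins made up another set. The calcium channel list gave 8 of 16 genes: CACNA1A, CACNA1D, CACNA1E, CACNA1F and CACNA1S (voltage-gated), NALCN (sodium leak), ITPR3 (the inositol trisphosphate receptor) and RYR1_copy2, a piece of the skeletal muscle ryanodine receptor gene. CACNA1F, the retinal channel, spanned 23.2 kb with 44 exons and CACNA1S, the skeletal muscle channel, 58.7 kb with the same number. A second CACNA1F model of 3 exons lay beside the first, and the 2 models together had 47 exons. CACNA1D and CACNA1E reached 267 and 268 kb with 47 and 45. The ferlins FER1L5, MYOF and OTOF, membrane fusion proteins, had 46 to 53 exons, the lipid exporters ABCA1 and ABCA12 49 and 53, and the lipid transfer genes VPS13A, VPS13C and VPS13D 72, 84 and 68. KIAA1109 of the same list had 51, as 1 piece of a gene split over several models.

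Of 11 DOCK genes, exchange factors for small GTPases, 8 passed with 46 to 56 exons and 120.4 to 209.7 kb. Their symmetric shares were 26.5% to 28.0% in DOCK3, DOCK4 and DOCK5 and 50% to 53.7% in DOCK8, DOCK9, DOCK10 and DOCK11. The BEACH domain genes LYST, NBEAL1, WDFY3 and WDFY4 (vesicle traffic and autophagy) had 51 to 74 exons. The smaller lists gave CHD2, CHD3 and NIPBL of 23 chromatin regulators, C3 and C4B of complement, NF1, HTT and RALGAPA1, the fatty acid synthesis enzymes ACACA and ACACB, and FANCD2 of 11 replication and repair genes. PRPF8, SNRNP200, CNOT1, XRN1, SMG1, TPR and NUP210, which process, degrade or export RNA, came from a list of 19.

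**Figure D4:**
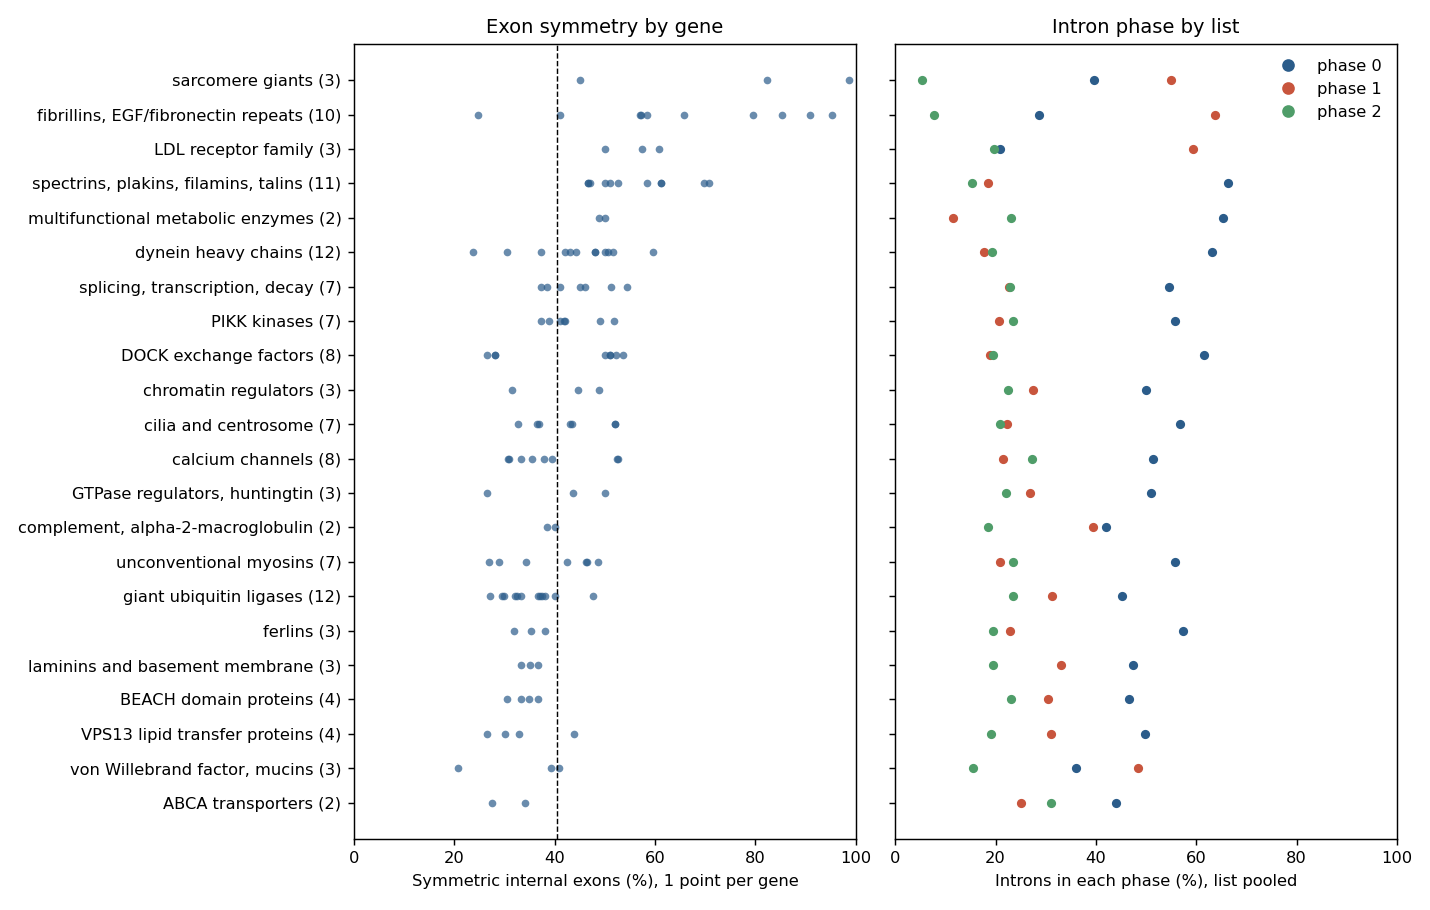
Left, symmetric internal exons (%) with 1 point per compact gene, by functional list and with the number of gene models in brackets; the dashed line marks the 40.4% of models of 20 to 39 exons. Right, the share of introns in phase 0, 1 and 2 pooled over each list. Phase 1 leads in the sarcomere, fibrillin, LDL receptor and von Willebrand factor lists, and phase 0 in the others.

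Some related genes had the same exon lengths in the same order. For each pair, the longest series of equal internal exon lengths found in both genes in order was taken. Other exons may lie between those of the series, which is given as a share of the shorter gene's internal exons. Among 22170 pairs with no list in common the median was 10.3%, and 30 of all 22577 pairs reached 50% or more. The highest value was 94.9% for EML5 and EML6, microtubule-associated proteins with 42 and 41 exons. USP9X and USP9Y, deubiquitinases of the X and Y chromosomes in mammals, shared 92.9%. TLN1 and TLN2 shared 92.6% (50 of 54), although TLN1 spanned 23.6 kb and TLN2 176 kb, and both had 61.1% symmetric internal exons and 78.2% of introns in phase 0.

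Among the other pairs, ACACA and ACACB shared 90.2%, the digestive enzymes MGAM and SI 84.2%, and FBN1 and FBN2 81.3%. NEB and NRAP shared 77.5%, and DOCK3 and DOCK4 76.0%. NEB and NRAP are both repeat genes with 105 bases as the most frequent exon length. As NEB has 155 internal exons and NRAP 40, equal lengths in order are easier to find in that pair. Families differed in this measure. The dynein heavy chains reached at most 21.1% over 66 pairs, with a median of 12.9%, and the PIKK kinases at most 15.4% over 20. The dynein pairs leave out DNAH8 and DNAH9, which were over the span limit, and DNAH17, which has 4 models. The 21.1% was for DNAH2 with the piece DYNC1H1_copy2. The giant ubiquitin ligases had a median of 11.4% and 1 pair, UBR1 and UBR2, at 62.8%. EFCAB3 and NRAP reached 50% and TTN and NLRC5 41.5% with no list in common; these are repeat genes, and 105 bases is the most frequent exon length in both EFCAB3 and NRAP.

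**Figure D5:**
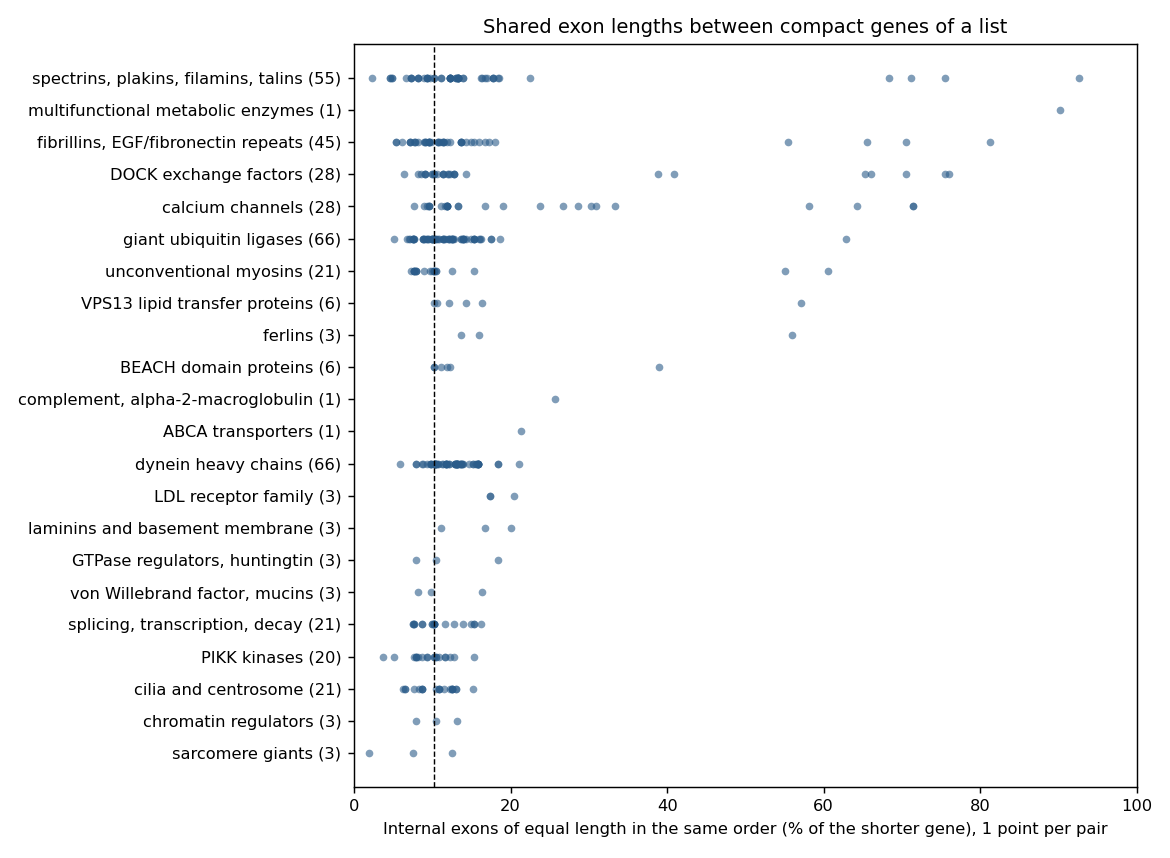
Internal exons of equal length in the same order (% of the shorter gene's internal exons), 1 point per pair of compact genes in the same functional list, with the number of pairs in brackets; the dashed line marks the median of 10.3% over pairs with no list in common. Talins, acetyl-CoA carboxylases and fibrillins reach 92.6%, 90.2% and 81.3%, and dynein heavy chains stay at or below 21.1%.

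The compact many-exon genes lay on 41 scaffolds, 210 of them on scaffolds of 1 Mb or more. A median of 22 other models started within 1 Mb of their start, where the median was 25 over all models, 29 over symbol-named models of 2 or more exons and 14 for the 27 longer genes. The range was wide, from 3 at MPDZ (a tight junction scaffold) and 4 at WDFY3 to 108 at FBN3 and 116 at DNAH2. The median distance to the next model on the 5′ side was 32.5 kb. That neighbour lay on the opposite strand in 113 of 213 (53.1%), against 48.2% for all symbol-named models of 2 or more exons. Starts facing each other within 1 kb occurred in 2 cases, ZFYVE26 with the repair gene RAD51B at 548 bases and EML3 with ROM1 at 394 bases. That is 0.939% of the compact genes, against 2.16% of models of 20 to 39 exons and 2.44% of all symbol-named models of 2 or more exons.

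Compact many-exon genes stood next to each other in 5 places. NIPBL, the cohesin loader, and C5orf42 lay on scaffold 8 with their 3′ ends 1.21 kb apart, from 17932314 to 18041041 and from 18042248 to 18135167. MYO5A and MYO5C followed each other on scaffold 16 at 28.8 kb, and ATR and XRN1 on scaffold 13 at 33.2 kb. DNAH5 and the exchange factor TRIO faced each other on scaffold 8 with 239 kb between their 5′ ends. The fifth pair was 2 pieces of PRKDC. USP9X lay on scaffold 24 beside DDX3X, at 66.4 kb, and USP9Y on scaffold 62 beside DDX3Y, at 11.1 kb.

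Other models lay wholly inside 22 of these genes (10.3%), where the share was 5.87% for models of 20 to 39 exons, 29.6% for the 27 longer genes and 2.90% for all symbol-named models of 2 or more exons. All 26 nested models were on the strand opposite to the host, as were all 617 nested in other symbol-named hosts, so the annotation records no nesting on the same strand in these hosts. Of the 26, 24 lay within 1 intron and 17 had 1 coding exon. The 2 nested models of ITPR3, named ITPR3 and ITPR3_copy2, overlapped a host exon and carry the host's own symbol. Intron 35 of NF1, the Ras-inhibiting tumour suppressor, measured 61.3 kb and held EVI2A, EVI2B and OMG. TG, thyroglobulin, held the adaptor gene SLA in intron 39 of 51.0 kb, CDH23 of hair cells held VSIR and C10orf105, and MTOR held ANGPTL7. Several others held models named as copies of ribosomal or mitochondrial protein genes, such as RPL26_copy13 in DOCK4 and COX20_copy19 in UBR1.

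Neighbour order could be compared with the RefSeq annotation of a later mole assembly, MPIMG_talOcc4v2.1, by name only. Of the 212 symbols 206 were found there. Of 337 neighbouring pairs that include a compact many-exon gene and could be followed, 328 (97.3%) were neighbours in RefSeq too, and over all pairs the share was 96.4%. Among the 9 that were not, PHF20L1 and TG, and ARHGAP22 and WDFY4, each include a host of a nested gene.

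Exon number depends on whether a gene was kept in 1 model. For 43 symbols, models lying side by side on 1 strand matched successive parts of the target and together reached 40 exons within 300 kb. In 17 of these a piece already counted: RYR1 was split into models of 34, 54 and 14 exons, PRKDC into 41 and 40, HSPG2 into 11 and 82, and LRP1 into 56, 12 and 3. In DYNC1H1 the pieces had 39 and 40 exons, so 1 fell on each side of the limit. Another 7 are collagen or MYH genes, set aside in any case. In the remaining 19 no piece had 40 exons, among them the histone methyltransferase KMT2C with 35 and 27 exons, ITPR1 with 19, 29 and 9, the muscle ferlin DYSF with 24 and 32, the pyrimidine enzyme CAD with 29 and 17, and the Mediator subunit MED12 with 29 and 18. Counts of exons and coding length for the pieces are therefore those of parts of genes. Models of HERC2 (35 and 58 exons), DNAH14 (23, 9 and 40) and UNC79 (6 and 44) also lay side by side within 300 kb. The target parts they matched overlapped, so they are not among the 43. In the 18 models matched over less than 80% of the coding length, these counts also cover sequence outside the named match.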

How the data were processed

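The deposited file is a gene annotation of build talOcc3. Per the file headers it gives for each gene, transcript and coding exon its first and last base, strand and coding phase, and the authors' score for a transcript's match to a named target. No source used here says how the score was made, and it was not compared. The submitters' processing notes name BWA without a version. Sequencing depth is unknown, and 4C values were not analysed here.

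Models were read per transcript with Python 3.11.15, and each exon count, length and phase taken as deposited. The routines were tested on simulated models. Intervals of shares are 95% Wilson intervals. Those of medians, such as 6813 to 7647 bases for coding length, are of another kind and served to judge the alternatives. Genes were named by rule: extremes of exon number, coding length, span, exon symmetry, exon and intron length, genes at either limit, listed genes and adjacent pairs. Genes named outside it, such as nested genes and split genes, were chosen after their values were seen. The members and lists were chosen with earlier results of these data known. Alternatives changed the limits, the models used, the averaging and the window. C5orf42 was matched to its current name from general knowledge. A few genes are not reported by name here.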

Additional observations from a re-analysis of the deposited data

How the results depend on the processing

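Of the values over the compact many-exon genes, 80 stayed within their interval under an alternative, or within 1.5 times for a number of genes or pairs, and 19 did not. The share of symmetric internal exons was 44.1% for models with a coding length that is a multiple of 3, 48.8% with collagen and MYH genes kept in, 46.5% with 45 or more exons, 43.4% with 35 or more and 42.5% with spans below 200 kb. Phase 0 held 52.0% of introns with collagen and MYH genes and 51.7% with spans below 200 kb. A minimum of 45 exons left 139 genes with a median coding length of 8208 bases, and 35 gave 337 with 6411. All introns pooled had a median of 1023 bases. Windows of 0.5 and 2 Mb gave 12 and 44 starts, against 14 and 44 over all models and 16 and 50 over symbol-named models of 2 or more exons. Alternatives chosen after seeing the data were also run. Without the 10 repeat genes the symmetric share was 41.1% and phase 0 51.7%. Without TTN they were 44.1% and 50.9%. With name matches of 80% or more, phase 0 was 51.2%. The cause of these shifts beyond the change in genes counted was not tested. No paired analysis was possible because no library value was analysed. Split models, partial name matches, 1 transcript per gene and missing untranslated regions limit every count.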
